A study of Homo sapiens with 6 samples.

Results

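The DEAD and DEAH box genes encode RNA helicases, and 54 of the 57150 gene rows of the deposited table were taken under symbols of this family. They are called helicases below by symbol, which takes in DDX26B, the DNA helicase DDX11 and the pseudogene DDX12P. Members were taken by symbol alone, as every row named DDX or DHX with a number and at most 1 further letter; 58 rows matched. The rule left out 3 symbols, the Y-linked copy of DDX3X and a pair of RIG-I-like receptors, and dropped 1 weaker row of a repeated symbol, which gave 39 DDX and 15 DHX genes. The rule itself used no expression value, except that the row with the higher mean was kept for the repeated symbol DDX19B. It was set with earlier results of these data known.

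These enzymes bind ATP and use its hydrolysis to open RNA helices, to strip proteins from RNA or to clamp onto RNA. DEAD box proteins act locally on short helices, whereas DEAH box proteins move along a strand and pull it, often switched on by partners that carry a G-patch. Members of the family act at many remodelling steps of the spliceosome, carry mRNA through the nuclear pore, assemble ribosomes in the nucleolus, and set translation and decay of mRNA in the cytoplasm.

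The family is named after motif II of the helicase core, 4 residues that contact ATP. The coding sequence of motif II is shown for members whose levels are described further on, because its last codon differs between most DDX and most DHX genes; it was read from GENCODE v29 transcripts, capitals mark the 12 bases of the motif, and 18 bases stand on either side.
DHX38: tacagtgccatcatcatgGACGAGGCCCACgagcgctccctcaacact
DHX35: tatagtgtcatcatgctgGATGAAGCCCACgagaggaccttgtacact
DHX15: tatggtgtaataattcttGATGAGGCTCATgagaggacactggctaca
DHX29: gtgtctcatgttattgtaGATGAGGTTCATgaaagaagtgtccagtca
DDX5: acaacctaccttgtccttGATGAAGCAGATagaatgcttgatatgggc
DDX17: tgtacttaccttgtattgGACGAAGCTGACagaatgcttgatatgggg
DDX39A: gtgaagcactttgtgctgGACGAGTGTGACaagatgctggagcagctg
DDX39B: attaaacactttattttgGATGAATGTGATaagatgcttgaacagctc
DDX21: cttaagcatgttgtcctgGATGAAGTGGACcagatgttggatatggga
DDX50: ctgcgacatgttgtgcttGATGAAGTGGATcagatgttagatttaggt
In a search of 53 members with a coding transcript, 29 of the DDX genes carried in-frame codons for Asp-Glu-Ala-Asp after the ATP-binding loop, among them DDX5 and DDX17. DDX39A and DDX39B had Asp-Glu-Cys-Asp, DDX21 and DDX50 had Asp-Glu-Val-Asp, and DDX52 had Asp-Glu-Ser-Asp. Asp-Glu-Ala-His was found in 8 DHX genes, among them DHX38, DHX35 and DHX15, and Asp-Glu-Val-His in 4, among them DHX29. DHX9 and DHX36 had Asp-Glu-Ile-His. Against their symbols, DDX11 had Asp-Glu-Ala-His and DDX60 and DDX60L had Asp-Glu-Val-His, which end in His as in the DHX genes. The motif alone does not place them among the DEAH box helicases. The search found no such motif in DHX32 or in DDX26B, whose Ensembl ID is now named INTS6L, a relative of an Integrator subunit. DDX12P is a pseudogene of DDX11 and has no coding transcript there.

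The values come from poly(A)-selected, strand-specific RNA-seq of the established human cell line MDA-MB-435, in 3 libraries with ZCCHC24 knockdown (KD) and 3 control libraries (CTRL). ZCCHC24 encodes a protein with a CCHC zinc finger. The labels do not state the means of knockdown or the treatment of the controls. They also do not tell whether each library had its own culture; the p-values therefore rest on differences among these libraries, which may be technical. ZCCHC24 itself stood at 1.54, 1.69 and 1.81 FPKM in the KD libraries, against 12.7, 12.3 and 13.2 FPKM in the CTRL libraries, a log2 change of -2.36 ± 0.08 (SE, limma adjusted p = 1.52e-07); the exact two-sided permutation p was 0.1, the lowest this number of libraries can reach.

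The labels call the line breast tissue. Of 12 breast epithelial markers, 8 reached a mean of 1 FPKM, while KRT5 was listed at 0 in every library and KRT14, GATA3 and ESR1 stayed below 1 FPKM on average; the list summed to 154 to 163 FPKM in KD and 110.4 to 129 FPKM in CTRL libraries. KRT18, at 90.8 FPKM in KD and 70.4 FPKM in CTRL, and KRT8, at 44.8 and 27.5 FPKM, made up most of these sums. Every other marker of that list averaged 10.3 FPKM or less in either group. All 8 melanocyte lineage markers reached a mean of 1 FPKM. Their summed level was 1486 to 1551 FPKM in KD and 2152 to 2253 FPKM in CTRL libraries. As background, this line is held to derive from a melanoma. None of 5 markers of lymphoid and myeloid cells reached 1 FPKM, and together they summed to 0.389 to 0.568 FPKM in KD and 0.293 to 0.649 FPKM in CTRL libraries. The absolute depth of the libraries is unknown. On log2(FPKM + 1) over the genes tested, libraries of the same group correlated at 0.986 to 0.988 and libraries of different groups at 0.927 to 0.932.

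The helicases were well expressed. FPKM scales by transcript length, so levels of different genes can be set side by side: 41 of 54 members reached 10 FPKM in each KD library, and 39, 39 and 40 did in CTRL libraries 1 to 3. Together the members made up 0.387%, 0.398% and 0.391% of all FPKM in the KD libraries, against 0.334%, 0.349% and 0.348% in the CTRL libraries. DDX17, DDX5 and DDX39B stood highest in both groups, each above 200 FPKM in every library. The spread between replicates was small, with a median coefficient of variation of 4.01% in KD and 4.04% in CTRL libraries over the tested members.

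**Figure D1:**
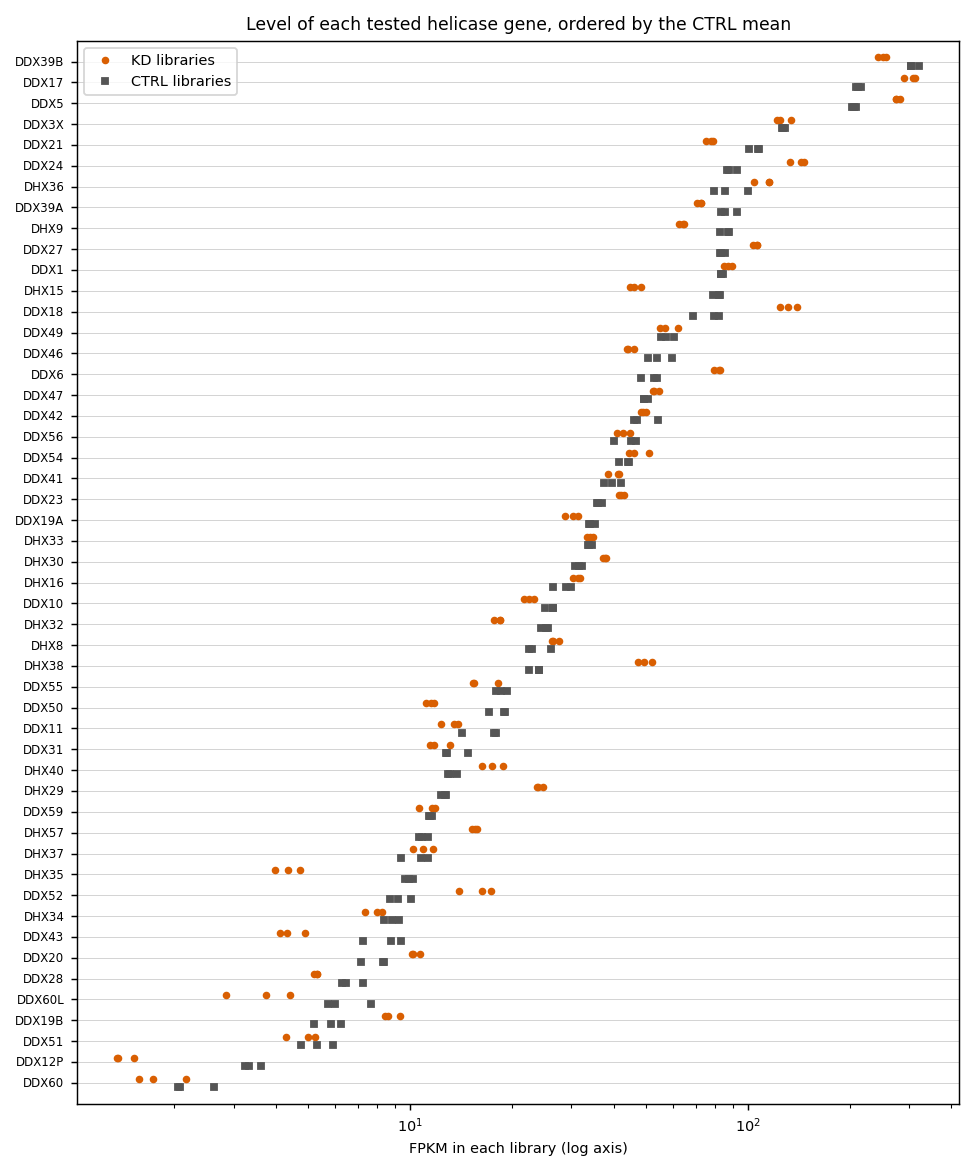
FPKM of the 50 tested helicase genes in each KD library (circles) and each CTRL library (squares), on a log axis and ordered by the CTRL mean. DDX39B, DDX17 and DDX5 lead the order, and DHX38, DHX29 and DHX35 are among the genes whose groups lie clearly apart.

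Testing was limited to genes that averaged 1 FPKM or more across the 6 libraries, which 50 of the 54 members did. The 4 others were DDX4, DDX25 and DDX53, which are germline or testis genes, and DDX26B, none above 0.0870 FPKM in any library. DDX53 was listed at 0 in all libraries, and DDX4 was listed at 0 in all but CTRL 1, at 0.0475 FPKM.

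The family did not move as a block. At a limma adjusted p below 0.05 over all 13343 genes tested, 17 members were higher and 17 were lower after knockdown and 16 did not pass, so 68% of the tested members were called, against 72.4% of all genes tested. Among all genes 37% were higher and 35.4% were lower. The median change of the tested members was 0.0022 on log2(FPKM + 1), KD minus CTRL, beside 0.0119 for all tested genes, and the median absolute change was 0.30, beside 0.41 for all tested genes. Changes of at least 0.5 were called in 14 of 50 members, against 40.4% of all genes, and changes of at least 1 in 2, DHX38 and DHX35, against 12.1% of all genes. KD and CTRL libraries did not overlap in 38 of 50 members, against 75.9% of all genes. These shares are descriptions and no test of the family was made. In such bulk libraries fewer cells of a kind and less RNA per cell cannot be told apart. Of 35 tested DDX genes 10 were higher and 13 lower, and of 15 DHX genes 7 were higher and 4 lower.

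**Figure D2:**
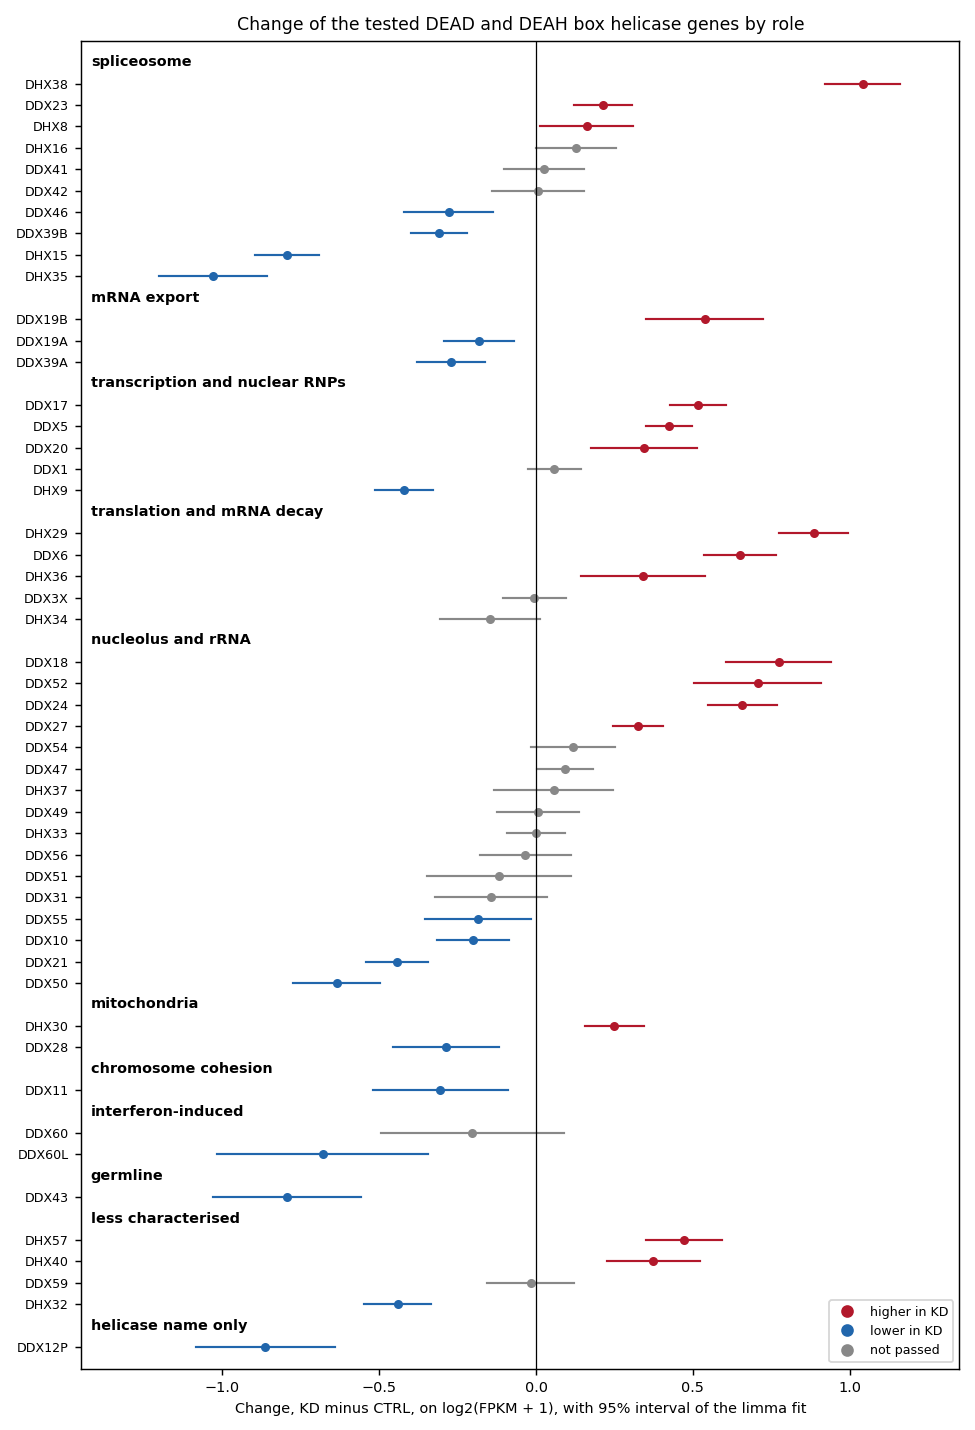
Change of the 50 tested members, KD minus CTRL on log2(FPKM + 1), with the 95% interval of the limma fit, grouped by role. Points right of 0 were higher in KD; colour gives the call. Rises and falls occur side by side within the spliceosomal, export, nuclear and nucleolar groups.

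The widest range was among the spliceosomal helicases, where DHX38 had the largest rise and DHX35 the largest fall of the family on log2(FPKM + 1). With a pseudocount of 0.1 FPKM the fall of the weakly expressed DDX12P was larger (-1.21) than that of DHX35 (-1.17). Of 10 spliceosomal members, 3 rose, 4 fell and 3 did not pass, so 70% were called, against 72.4% of all genes tested. DHX38 (ENSG00000140829; hg19 chromosome 16, 72078187 to 72210777) is the ATPase that remodels the spliceosome between the catalytic steps. It stood at 51.9, 49.3 and 47.2 FPKM in KD libraries, against 24.0, 24.0 and 22.5 FPKM in CTRL libraries. Every KD library lay above every CTRL library, a 2.10-fold difference of the means and a log2 change of 1.04 ± 0.05 (SE, n = 3 each, limma adjusted p = 8.85e-07). The table gives the same locus for TXNL4B, which also rose, to 25.1 ± 2.62 FPKM in KD against 15.5 ± 0.428 FPKM in CTRL; the sources do not say whether reads of overlapping genes were told apart.

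DHX15 (ENSG00000109606; chromosome 4, 24519063 to 24586173) takes the used spliceosome apart and releases the intron lariat. It stood at 44.8, 48.3 and 46.0 FPKM in KD libraries, against 78.8, 82.4 and 82.3 FPKM in CTRL libraries. The groups were far apart, with a log2 change of -0.79 ± 0.04 (limma adjusted p = 1.45e-06). DHX35 (ENSG00000101452; chromosome 20, 37590941 to 37668366) is found in catalytic spliceosomes and is less well understood. It stood at 4.71, 3.99 and 4.36 FPKM in KD libraries, against 9.64, 9.93 and 10.2 FPKM in CTRL libraries. KD libraries held 0.439 of the CTRL mean, with a log2 change of -1.03 ± 0.07 (limma adjusted p = 5.82e-06).

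Smaller changes were seen in helicases that act while the spliceosome assembles. DDX46, which helps the U2 particle onto the branch point, stood at 44.2, 45.9 and 43.9 FPKM in KD libraries, against 50.4, 59.4 and 53.7 FPKM in CTRL libraries (log2 change -0.28 ± 0.06, limma adjusted p = 0.00361). DDX39B, which acts in early assembly and in mRNA export, stood at 251, 242 and 256 FPKM in KD libraries, against 304, 303 and 321 FPKM in CTRL libraries (-0.31 ± 0.04, adjusted p = 0.000145). Both fell without overlap between the groups. The table lists a readthrough transcript with a neighbour, ATP6V1G2-DDX39B, at the same locus; it fell to 2.08 ± 1.28 FPKM in KD, against 8.81 ± 0.611 FPKM in CTRL, while ATP6V1G2 and NFKBIL1, listed at that locus too, rose. DDX23, the helicase of the U5 particle that exchanges U1 for U6 at the 5′ splice site, rose slightly. It had 41.4, 42.1 and 42.9 FPKM in KD libraries, against 36.9, 36.0 and 35.7 FPKM in CTRL libraries (0.21 ± 0.04, adjusted p = 0.00151).

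The other spliceosomal members changed little. DHX8, which releases the spliced mRNA, had 27.6, 26.5 and 26.3 FPKM in KD libraries, against 26.2, 22.9 and 22.5 FPKM in CTRL libraries. Its KD libraries all lay above the CTRL libraries, but KD 3 and CTRL 1 nearly touched, and the call was at the threshold (0.16 ± 0.06, limma adjusted p = 0.0497). It was lost with any library but CTRL 1 left out, and without the filter on low values (adjusted p = 0.0975). DHX16, which activates the spliceosome for the first catalytic step, had 31.4, 31.7 and 30.3 FPKM in KD libraries, against 29.9, 26.5 and 29.0 FPKM in CTRL libraries (0.13 ± 0.06, limma adjusted p = 0.0674). It did not pass, although its groups did not overlap; it passed with CTRL 1 left out (0.16, adjusted p = 0.0337) and with median scaling (adjusted p = 0.0430). DDX41, a helicase mutated in inherited myeloid neoplasms, had 41.2, 38.5 and 41.5 FPKM in KD libraries, against 42.0, 37.6 and 39.6 FPKM in CTRL libraries. DDX42, which associates with the SF3B complex, had 49.0, 48.3 and 49.8 FPKM in KD libraries, against 47.0, 54.1 and 45.8 FPKM in CTRL libraries. For both genes the KD and CTRL libraries overlapped, with 95% intervals of the log2 change of -0.10 to 0.15 for DDX41 and -0.14 to 0.15 for DDX42.

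**Figure D3:**
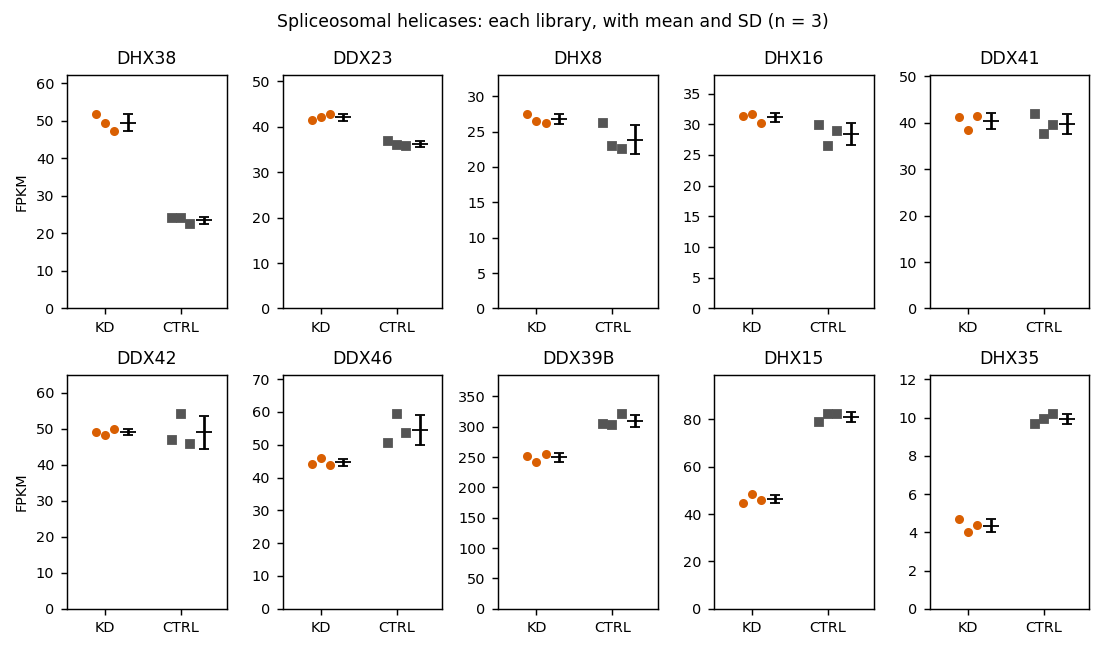
FPKM of the 10 spliceosomal helicases in each KD and CTRL library, with the mean and SD of 3 libraries beside the points; each vertical axis starts at 0. DHX38 sits near 50 FPKM in KD and near 23 FPKM in CTRL libraries, while DHX15 and DHX35 sit lower in KD.

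Among the export helicases the related genes DDX19A and DDX19B changed in opposite directions. Both act at the cytoplasmic face of the nuclear pore, where GLE1 stimulates them to release mRNA from export factors. DDX19B had 8.43, 9.36 and 8.60 FPKM in KD libraries, against 5.82, 5.20 and 6.25 FPKM in CTRL libraries (0.54 ± 0.08, limma adjusted p = 0.000416). DDX19A had 30.4, 31.4 and 28.8 FPKM in KD libraries, against 33.7, 34.1 and 35.3 FPKM in CTRL libraries (-0.18 ± 0.05, adjusted p = 0.00894). Neither pair of groups overlapped, and DDX19A stayed the more abundant gene. They lie in tandem and the table gives them 1 locus (chromosome 16, 70323565 to 70407286). Their coding sequences were 94.6% identical over aligned bases, and 9.67% of the 100-base windows of DDX19B transcripts occur in DDX19A transcripts, so part of the reads could be assigned to either gene. DDX39A, the close relative of DDX39B in mRNA export, had 72.7, 72.4 and 70.7 FPKM in KD libraries, against 92.5, 83.3 and 85.4 FPKM in CTRL libraries. It fell without overlap (-0.27 ± 0.05, adjusted p = 0.000965).

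Of 5 helicases of transcription and nuclear particles, 3 rose, 1 fell and 1 did not pass, beside 37% higher and 35.4% lower among all genes; the group was not tested. DDX17 and DDX5 are related coregulators of transcription, splicing and microRNA processing. DDX17 had 313, 308 and 290.1 FPKM in KD libraries, against 208, 216 and 211 FPKM in CTRL libraries (0.52 ± 0.04, limma adjusted p = 7.43e-06). DDX5 had 275, 282 and 273 FPKM in KD libraries, against 204, 208 and 206 FPKM in CTRL libraries (0.42 ± 0.03, adjusted p = 7.24e-06). In both genes every KD library was above every CTRL library by more than the spread within a group. DDX20, of the SMN complex that builds snRNPs, rose to 10.3 ± 0.290 FPKM in KD, against 7.95 ± 0.682 FPKM in CTRL (adjusted p = 0.00288). DHX9, a nuclear helicase that opens double-stranded RNA and RNA-DNA hybrids, moved the other way. It had 62.6, 64.5 and 64.3 FPKM in KD libraries, against 82.5, 87.6 and 87.3 FPKM in CTRL libraries (-0.42 ± 0.04, adjusted p = 2.77e-05). DDX1, of the tRNA ligase complex, did not pass; it averaged 87.2 ± 2.26 FPKM in KD and 83.7 ± 0.771 FPKM in CTRL.

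Of 5 helicases of translation and mRNA decay, 3 rose and 2 did not pass. None fell by the limma test at an adjusted p below 0.05. Among all genes 37% were higher and 35.4% were lower, and the group was not tested. DHX29, which helps the small ribosomal subunit scan structured mRNA leaders, had 23.9, 24.7 and 23.7 FPKM in KD libraries, against 12.8, 12.6 and 12.4 FPKM in CTRL libraries. The KD mean was 1.91 times the CTRL mean, the second largest rise of the family (0.88 ± 0.05, limma adjusted p = 1.21e-06). DDX6, a repressor of translation and activator of mRNA decapping in P-bodies, had 79.4, 82.9 and 81.9 FPKM in KD libraries, against 48.1, 53.7 and 52.7 FPKM in CTRL libraries (0.65 ± 0.05, adjusted p = 8.37e-06). All KD libraries of both genes were above all CTRL libraries. DHX36, which resolves G-quadruplexes, averaged 112 ± 6.86 FPKM in KD and 88.4 ± 10.8 FPKM in CTRL; KD 1, at 104 FPKM, lay just above CTRL 2, at 100.3 FPKM (0.34 ± 0.09, adjusted p = 0.00696). DDX3X, a cofactor of translation initiation, had 125, 134 and 122 FPKM in KD libraries, against 126, 129 and 127 FPKM in CTRL libraries. Its groups overlapped entirely, with a log2 change of -0.0054 whose 95% interval ran from -0.11 to 0.09; the sign turned with median scaling. DHX34, a factor of nonsense-mediated decay, averaged 7.87 ± 0.445 FPKM in KD and 8.82 ± 0.459 FPKM in CTRL and did not pass (limma adjusted p = 0.0883), although its groups did not overlap.

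The 16 nucleolar helicases, which assemble ribosomal subunits, held 4 rises, 4 falls and 8 that did not pass. Thus 50% were called, against 72.4% of all genes tested, and the group was not tested. DDX18, needed for the large subunit, had 131, 139.5 and 124 FPKM in KD libraries, against 68.8, 79.3 and 82.1 FPKM in CTRL libraries (0.77 ± 0.07, limma adjusted p = 2.53e-05). DDX52, a small subunit factor, had 14.0, 17.3 and 16.4 FPKM in KD libraries, against 8.72, 9.19 and 10.1 FPKM in CTRL libraries (0.71 ± 0.09, adjusted p = 0.000139). DDX24 had 144, 147 and 134 FPKM in KD libraries, against 86.5, 88.1 and 92.9 FPKM in CTRL libraries (0.66 ± 0.05, adjusted p = 6.31e-06). The groups were separate for all of these. DDX27, a factor of 28S rRNA maturation, was also higher, at 105 ± 1.46 FPKM in KD against 83.9 ± 1.26 FPKM in CTRL (adjusted p = 5.28e-05).

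The falls in the nucleolar group included both members of a neighbouring pair on chromosome 10. DDX21 (70715883 to 70744829), which links RNA polymerase I transcription with rRNA processing, had 75.0, 77.8 and 78.8 FPKM in KD libraries, against 101, 108 and 107 FPKM in CTRL libraries (-0.44 ± 0.04, limma adjusted p = 3e-05). Its relative DDX50 (70661033 to 70706603) had 11.8, 11.5 and 11.2 FPKM in KD libraries, against 17.1, 19.0 and 19.1 FPKM in CTRL libraries (-0.64 ± 0.06, adjusted p = 2.73e-05). Both were lower in every KD library. DDX10 averaged 22.5 ± 0.793 FPKM in KD and 26.0 ± 0.841 FPKM in CTRL (adjusted p = 0.00625). DDX55 was the only called member of the family whose groups overlapped, with 18.1, 15.4 and 15.3 FPKM in KD libraries against 17.9, 19.3 and 18.6 FPKM in CTRL libraries (limma adjusted p = 0.0489). Its call was lost with any library but KD 1 left out, with median scaling, without the filter and with the replicate block.

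The nucleolar members that did not pass were DDX31, DDX47, DDX49, DDX51, DDX54, DDX56, DHX33 and DHX37, with log2 changes from -0.14 to 0.12; DDX47 passed without CTRL 1, with median scaling and without the filter, and DDX31 with the replicate block. DHX33 had 34.0, 34.7 and 33.4 FPKM in KD libraries, against 33.7, 34.5 and 33.9 FPKM in CTRL libraries. Its log2 change was -0.0006, with a 95% interval of -0.09 to 0.09 and a sign that turned with median scaling. DDX49 had 62.0, 56.7 and 54.7 FPKM in KD libraries, against 60.2, 57.0 and 55.4 FPKM in CTRL libraries, a log2 change of 0.0050 with a 95% interval of -0.13 to 0.14. With DDX3X these were the members of at least 10 FPKM closest to no change.

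Both helicases of mitochondrial ribosome assembly were called, in opposite directions, beside 72.4% called among all genes tested. DHX30 averaged 37.6 ± 0.366 FPKM in KD and 31.5 ± 0.765 FPKM in CTRL (limma adjusted p = 0.000712), and DDX28 averaged 5.27 ± 0.0686 FPKM in KD and 6.67 ± 0.497 FPKM in CTRL (adjusted p = 0.00758). Neither gene's groups overlapped, which also held for 75.9% of all genes tested.

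DDX11, a DNA helicase of sister chromatid cohesion, had 12.3, 13.9 and 13.5 FPKM in KD libraries, against 18.0, 17.7 and 14.2 FPKM in CTRL libraries. KD libraries lay below CTRL libraries, with CTRL 3 close to them (-0.31 ± 0.09, limma adjusted p = 0.0171). The call was lost without KD 1 (adjusted p = 0.0635), without CTRL 1 (0.0631), without CTRL 2 (0.0619) and without the filter (0.0542). Its pseudogene DDX12P fell more, with 1.52, 1.36 and 1.36 FPKM in KD libraries against 3.61, 3.33 and 3.24 FPKM in CTRL libraries (-0.86 ± 0.10, adjusted p = 7.05e-05). Of the 100-base windows of the DDX12P transcript, 17.5% occur in DDX11 transcripts, so its level depends on how shared reads were assigned. All 10 markers of cell division were called lower in KD, beside 35.4% of all genes tested. Their summed level was 299 to 334 FPKM in KD, against 1015 to 1075 FPKM in CTRL libraries. The part of these markers in the changes of DDX11 and the other helicases was not tested.

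Of the interferon-induced neighbours on chromosome 4, DDX60L fell and DDX60 did not pass. DDX60L had 2.86, 3.75 and 4.40 FPKM in KD libraries, against 5.98, 5.72 and 7.67 FPKM in CTRL libraries (-0.68 ± 0.15, limma adjusted p = 0.00307). The same locus is listed for CBR4, which did not pass, and for PALLD. PALLD also fell, to 6.84 ± 0.162 FPKM in KD against 20.4 ± 0.470 FPKM in CTRL. DDX60 had 1.57, 1.74 and 2.17 FPKM in KD libraries, against 2.63, 2.08 and 2.05 FPKM in CTRL libraries, and its groups overlapped (-0.20 ± 0.13, adjusted p = 0.180). DDX43, a cancer and testis gene, was the germline member expressed highly enough to be tested. It had 4.31, 4.88 and 4.13 FPKM in KD libraries, against 7.27, 8.75 and 9.38 FPKM in CTRL libraries (-0.80 ± 0.10, adjusted p = 0.000166), with no overlap. Its locus is listed also for MB21D1, which fell to 5.42 ± 0.129 FPKM in KD against 8.01 ± 0.713 FPKM in CTRL. RPL39P3 and RPS6P8, listed there too, rose, and OOEP did not pass.

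Among 4 less characterised members, DHX57 and DHX40 rose, DHX32 fell and DDX59 did not pass. DHX57 had 15.3, 15.8 and 15.6 FPKM in KD libraries, against 10.6, 11.3 and 10.9 FPKM in CTRL libraries (0.47 ± 0.05, limma adjusted p = 6.77e-05). DHX32 had 18.5, 18.5 and 17.7 FPKM in KD libraries, against 25.2, 24.5 and 25.6 FPKM in CTRL libraries (-0.44 ± 0.05, adjusted p = 5.27e-05). Both were separate between groups. DHX40 averaged 17.5 ± 1.27 FPKM in KD and 13.3 ± 0.416 FPKM in CTRL (adjusted p = 0.000893). DDX59 averaged 11.4 ± 0.661 FPKM in KD and 11.5 ± 0.0827 FPKM in CTRL, and the sign of its change turned with median scaling.

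Related members were also set against each other. The ratio of FPKM within 7 pairs was compared over libraries by an exact two-sided permutation test, in which 3 against 3 libraries cannot go below p = 0.1; 6 pairs reached that value, adjusted p = 0.117 over the 7 pairs, so none passed 0.05. DHX38 and DHX8 were about equal in CTRL libraries, and DHX8 was 0.541 times as abundant as DHX38 in KD against 1.01 times in CTRL, a change of -0.90 in the log2 ratio. DDX19A was 3.43 times as abundant as DDX19B in KD and 5.98 times in CTRL (-0.80). DHX29 was 1.55 times as abundant as DHX57 in KD and 1.15 times in CTRL (0.43). In each of these the ratios of KD and CTRL libraries did not overlap.

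DDX21 was 6.73 times as abundant as DDX50 in KD and 5.73 times in CTRL (0.23 on the log2 scale). DDX5 and DDX17 stayed close to equal, at a ratio of 0.912 in KD and 0.973 in CTRL (-0.09). DDX60 was 0.501 times as abundant as DDX60L in KD and 0.349 times in CTRL (0.52; 0.33 without CTRL 3). Ratios of KD and CTRL libraries were separate in these pairs as well. DDX39A was 0.288 times as abundant as DDX39B in KD and 0.281 times in CTRL, with overlapping libraries, a log2 difference of 0.04 (exact permutation p = 0.7) that was -0.0036 without CTRL 3. No 100-base window was shared between the transcripts of any of these pairs except DDX19A and DDX19B.

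**Figure D4:**
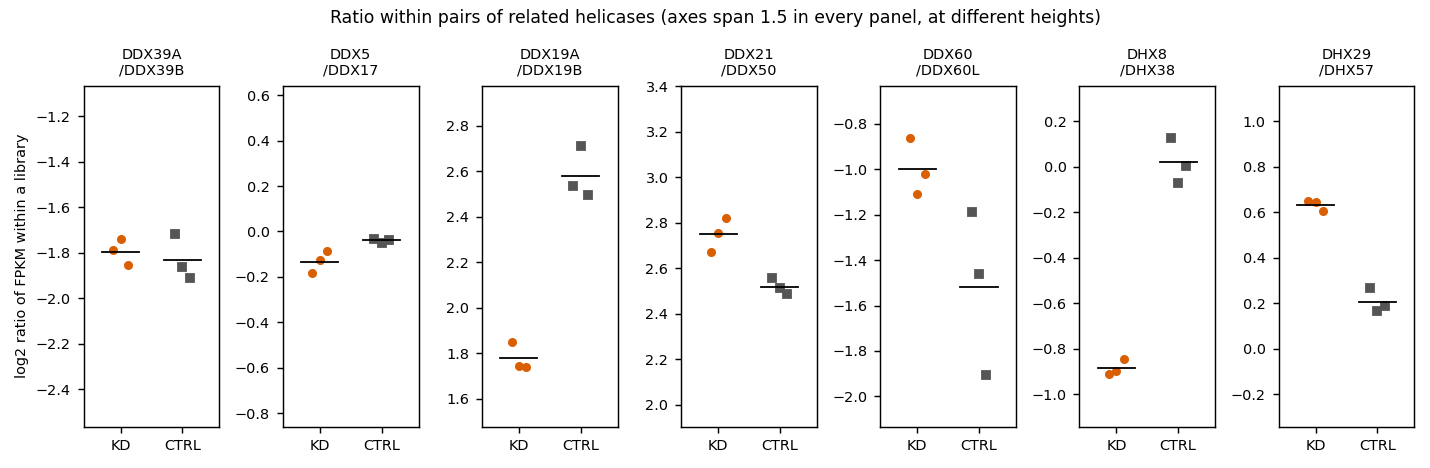
Log2 ratio of the FPKM of the first gene to that of the second in each KD library (circles) and CTRL library (squares), with the group mean as a line; every panel spans 1.5 log2 units. The DHX8 to DHX38 ratio lies near -0.89 in KD and 0.02 in CTRL libraries, and the DDX39A to DDX39B ratios overlap.

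In each of 3 lists of genes that work with or resemble these helicases, more genes rose than fell; the lists were not tested as sets. In the list of G-patch proteins, which bind and activate DEAH box helicases such as DHX15, 14 of 23 tested genes rose, 3 fell and 6 did not pass (11 to 13 rose with 1 library left out), beside 37% higher and 35.4% lower among all genes; the median change was 0.26 on log2(FPKM + 1). RBM5, a splicing regulator, rose to 75.4 ± 2.76 FPKM in KD against 36.6 ± 1.18 FPKM in CTRL (1.02 on the log2 scale). GPATCH3 also rose (log2 change 0.91 ± 0.06, limma adjusted p = 4.34e-06). TFIP11, which brings DHX15 to the spent spliceosome, rose to 54.4 FPKM in KD against 28.7 FPKM in CTRL (0.90; limma adjusted p = 7.27e-06), while DHX15 itself was lower. The falls in this list were CHERP, NKRF and PINX1; without CTRL 1 the number of falls was 5.

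A list of 12 tested genes joined proteins with an MIF4G domain, a fold that binds eIF4A and related helicases, with GLE1 and PDCD4, which binds eIF4A through other domains. Of these 9 rose and 3 fell, beside 37% higher and 35.4% lower among all genes, with a median change of 0.39. With 1 library left out, 7 to 9 of the list rose and 2 to 3 fell. UPF2 (0.92), PDCD4 (0.87), an inhibitor of eIF4A, and CTIF (0.71), which acts in translation of newly exported mRNA, rose the most on the log2 scale. GLE1, the activator of DDX19A and DDX19B, was among the falls (16.5 FPKM in KD against 20.8 FPKM in CTRL, limma adjusted p = 0.00167), with NOM1 and NCBP1. Of 18 tested RNA helicases and relatives with other names, 11 rose and 2 fell, 5 missed the threshold, and the median was 0.26. The rises in this list numbered 10 to 11 with 1 library left out. DICER1, which cuts microRNA precursors, rose to 33.8 FPKM in KD against 12.4 FPKM in CTRL (1.38). HELZ2 rose to 38.5 FPKM in KD against 16.9 FPKM in CTRL (1.15), and MOV10, which binds Argonaute complexes, fell to 9.43 FPKM in KD against 21.5 FPKM in CTRL (-1.11). EIF4A1, the DEAD box helicase of cap-dependent initiation, stood at 1333 FPKM in KD and 1323 FPKM in CTRL and did not pass (limma adjusted p = 0.792). Its relatives in the list were called higher. EIF4A2 rose to 454 FPKM in KD against 296 FPKM in CTRL (0.62, limma adjusted p = 7.88e-06). EIF4A3 rose to 80.8 FPKM in KD against 62.6 FPKM in CTRL (0.36, limma adjusted p = 0.000129).

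**Figure D5:**
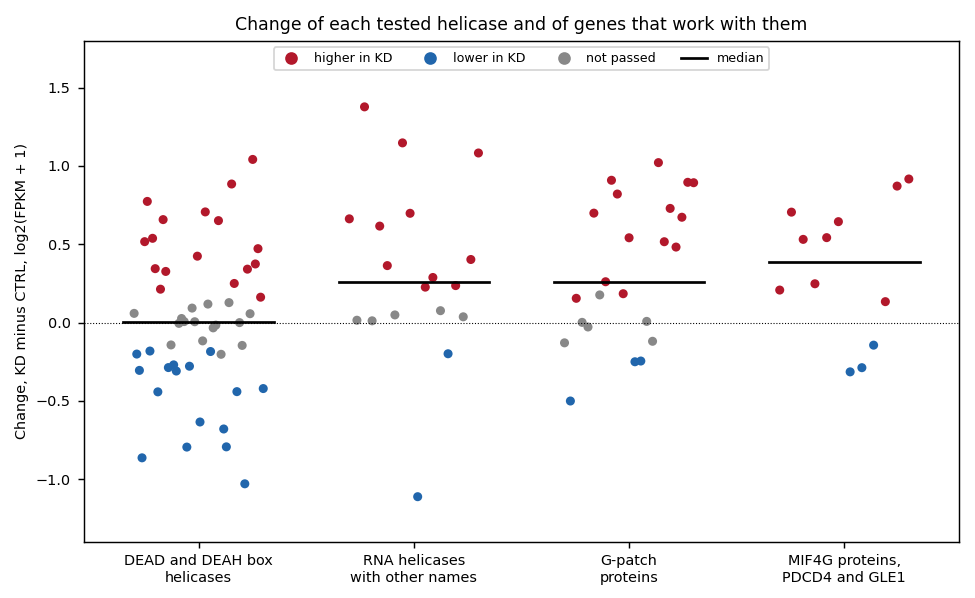
Change of each tested gene, KD minus CTRL on log2(FPKM + 1), for the helicases and for lists of genes that work with them; bars mark medians and colour gives the call. The medians are 0.0022 for the helicases, 0.26 for RNA helicases with other names, 0.26 for G-patch proteins and 0.39 for MIF4G proteins with PDCD4 and GLE1.

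Promoters are shown for the 2 largest rises and for the falls of DHX35 and DHX15, from 250 bases before to 50 bases after the start in RefSeq on GRCh38.p14, 5′ to 3′; capitals mark any of the motifs listed next, on either strand.
DHX38 (GRCh38.p14 chr16:72093597-72093896, plus strand): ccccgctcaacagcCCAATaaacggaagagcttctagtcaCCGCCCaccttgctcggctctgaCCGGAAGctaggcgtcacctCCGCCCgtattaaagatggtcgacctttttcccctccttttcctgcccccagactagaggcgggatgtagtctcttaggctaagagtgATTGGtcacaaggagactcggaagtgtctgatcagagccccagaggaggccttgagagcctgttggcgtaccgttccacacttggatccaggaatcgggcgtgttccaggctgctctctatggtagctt
DHX29 (GRCh38.p14 chr5:55307645-55307944, minus strand): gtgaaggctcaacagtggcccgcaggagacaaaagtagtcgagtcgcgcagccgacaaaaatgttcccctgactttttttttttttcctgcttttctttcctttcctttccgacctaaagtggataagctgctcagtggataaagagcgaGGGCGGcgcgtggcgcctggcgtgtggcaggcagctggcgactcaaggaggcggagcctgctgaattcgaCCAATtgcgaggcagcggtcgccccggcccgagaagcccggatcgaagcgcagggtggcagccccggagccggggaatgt
DHX35 (GRCh38.p14 chr20:38962094-38962393, plus strand): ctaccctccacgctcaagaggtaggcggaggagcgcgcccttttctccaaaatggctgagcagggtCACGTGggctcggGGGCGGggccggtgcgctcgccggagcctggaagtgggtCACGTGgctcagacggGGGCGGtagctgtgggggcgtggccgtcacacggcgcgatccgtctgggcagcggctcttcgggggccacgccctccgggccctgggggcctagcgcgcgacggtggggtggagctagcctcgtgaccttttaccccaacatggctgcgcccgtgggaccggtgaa
DHX15 (GRCh38.p14 chr4:24584505-24584804, minus strand): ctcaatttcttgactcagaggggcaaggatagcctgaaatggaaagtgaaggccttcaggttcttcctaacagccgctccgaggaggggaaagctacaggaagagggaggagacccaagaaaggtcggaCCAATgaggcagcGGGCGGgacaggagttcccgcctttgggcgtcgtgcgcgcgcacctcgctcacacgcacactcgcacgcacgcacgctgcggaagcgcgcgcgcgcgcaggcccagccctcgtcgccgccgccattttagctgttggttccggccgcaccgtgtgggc
The motifs were CCAAT (bound by NF-Y), GGGCGG (SP factors), CCGGAAG (ETS factors), CACGTG (MYC and related factors), TTTGGCGC (E2F), TATAAA (the TATA box) and the NRF1 site, searched as its 10-base palindrome; no motif contains another. RefSeq promoters were matched for 48 members, 45 of them tested. CCGGAAG occurred in 44.4% of these 45 promoters, against 20.5% of the 8732 promoters matched by symbol to tested genes and 10.3% of all 35116 promoters. It stood in 7 of 15 promoters of members that rose, as in DHX38, in 5 of 16 of members that fell and in 8 of 14 of members that did not pass. CCAAT occurred in 44.4% of member promoters, among them DHX38, DHX29 and DHX15, against 37.7% of promoters of tested genes and 34.6% of all promoters. GGGCGG occurred in 57.8%, against 70.6% of promoters of tested genes and 45% of all. CACGTG occurred in 17.8%, against 10.4% of promoters of tested genes and 7.26% of all; the DHX35 promoter holds it at more than 1 position. The NRF1 site was found in DDX10 and DDX11, TATAAA in DDX39B and DHX32, and TTTGGCGC in none of the 45 windows, against 2.44%, 5.13% and 1.18% of promoters of tested genes in that order. A match describes letters, not binding.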

How the data were processed

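The deposited table holds FPKM values made by the authors, read pairs per unit of transcript length and of library size, in 1 column per sample for 57150 genes, per the file headers; 1 blank row was left out. TopHat 1.4.1, Cuffdiff 2.2.0 and hg19 are named in the submitters' processing notes, with no role given. No source used here gives the annotation, strand setting, filters or any further scaling. Loci are hg19 as the table gives them and may span neighbouring genes, as for 21 tested helicases that share a locus with another expressed gene. The neighbours are described for only some of these helicases. Count models were not applied, because FPKM keep no read numbers, and no counting intervals are given.

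Columns were matched to samples by title and grouped as KD or CTRL. The 13343 genes averaging 1 FPKM or more across all 6 libraries were fitted as log2(FPKM + 1) with limma 3.58.1 in R 4.3.3 (two-sided moderated test, variance trend with mean level, Benjamini-Hochberg over all tested genes, threshold 0.05). The scale understates changes of weak genes. Values after ± are SD over 3 libraries for FPKM and SE of the fit for log2 changes. In data simulated for this comparison with 13343 genes, 50 genes were changed at each size, chosen away from low CTRL levels. The fit recovered 100% of genes changed by 2 on the log2 scale, 94% at 1, 70% at 0.5 and 16% at 0.25. There were 4 false calls among 144. In the real data 72.4% of tested genes were called, a far larger share, so these rates need not hold there.

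Members and lists were chosen with earlier results of these data known. Every member is named; values in every library are given for the 10 largest called rises and falls, the related pairs, the spliceosomal members and the 3 of at least 10 FPKM closest to 0. From each partner list the 3 largest called changes are named, with means or log2 changes. EIF4A1, other list members and genes sharing a locus were named after their values were seen. CMTR1 was matched by Ensembl ID, the others by symbol. Motif II was the first codon run for Asp-Glu, then Ala, Cys, Val, Ile or Ser, then Asp or His, after an ATP-binding loop, in the longest coding transcript of GENCODE v29. Shared windows counted exact matches over all transcripts of a gene. Alternatives were leaving out each library, a replicate block, scaling libraries to a common median, a pseudocount of 0.1 FPKM, and a filter at 5 FPKM or none.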

Additional observations from a re-analysis of the deposited data

How the results depend on the processing

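Of the 34 called helicases, 31 to 34 were called with the same sign under each alternative that tested them and 0 with the opposite sign; at a filter of 5 FPKM, DDX12P was not tested. DHX8, DDX11 and DDX55 lost their call under some alternatives and DDX47, DHX16 and DDX31 gained one. With 1 library left out, 16 to 19 members were higher and 15 to 16 lower, G-patch rises ran from 11 to 13 and falls from 3 to 5, and ZCCHC24 from -2.39 to -2.32. Median scaling, which moved the median of all genes to 0.04, turned the sign of DDX3X (0.0231), DDX59 (0.0116) and DHX33 (0.0278). Leaving out 1 library turned the sign of some changes that had not passed, which then ran from -0.0454 to 0.0224 for DDX3X, -0.0454 to 0.0428 for DDX49, -0.0390 to 0.0785 for DDX42, -0.0140 to 0.0120 for DHX33, -0.0478 to 0.0270 for DDX59, -0.0127 to 0.0658 for DDX41, -0.0963 to 0.0084 for DDX56 and -0.0146 to 0.107 for DHX37, and that of the DDX39A to DDX39B ratio (-0.0036 to 0.0938). The causes were not tested.

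The labels do not say that replicate numbers pair the libraries, and the deviations of KD and CTRL libraries with the same number correlated at -0.03, -0.07 and 0.02. The replicate block called 17 members higher and 17 lower, losing DDX55 (-0.19, adjusted p = 0.0738) and gaining DDX31 (-0.14, adjusted p = 0.0476). The files hold no depth, so values of 0 carry no detection limit.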
